A study of Mus musculus with 6 samples.

Results

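Carbonic anhydrase transcripts were followed in whole mouse kidney with and without adiponectin overexpression in the tubular epithelium. The family of 10 genes was chosen by the low *Car3* signal in adiponectin-overexpressing kidney, and *Car2*, *Car4*, *Car5b*, *Car8*, *Car11*, *Car12*, *Car13*, *Car14* and *Car15* entered by their symbols as relatives of *Car3*. These are 10 of the 54532 genes in the deposited table, found by Ensembl identifier through GENCODE M21. Because the comparison of the 2 genotypes selected the family, *Car3* is described here without a test. For the other 9 genes the values of the fit across all genes are given, and they are not independent support for the choice.

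The study concerned adiponectin made by kidney cells and its bearing on glucose and lipid metabolism, and these libraries compared renal gene expression with and without its overexpression. Control mice were KsprtTA mice, which carry the doxycycline-dependent activator rtTA under the Ksp-cadherin promoter of tubular epithelial cells, and the labels call them WT. KSPAPN mice carried the same KsprtTA allele together with TRE-Adiponectin, an adiponectin transgene that rtTA switches on. Both genotypes received doxycycline at 600 mg/kg chow for 4 days before the kidneys were taken, and the methods give male mice on a C57BL/6 background with no age for these animals. Each library was made from RNA pooled from 3 mice, so that 3 libraries stood for 9 mice per group and every error and p-value below describes the spread between pools. The labels give kidney as the tissue, although their extraction text speaks of liver.

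The library labels were checked with *Adipoq*, which had 2, 0 and 2 reads in the Control libraries and 24629, 17483 and 26811 reads in the KSPAPN libraries. The reads assigned to genes numbered 17183358 in the shallowest library and 20871173 in the deepest. The proximal tubule marker *Slc34a1*, a phosphate transporter, stood at 1212 ± 136 FPKM in Control and 1085 ± 102 FPKM in KSPAPN (SD, n = 3), whereas the hepatocyte product *Alb* stood at 2.05 ± 0.791 and 3.04 ± 2.40 FPKM. FPKM are reads scaled by the authors to gene length and library size, and they are the scale on which levels of different genes are compared below. Correlations of log2 CPM (read counts scaled to library size) between libraries lay between 0.972 and 0.984. In bulk tissue, fewer cells of a type and less RNA per cell cannot be told apart.

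Carbonic anhydrases convert carbon dioxide and water into bicarbonate and a proton, and most hold a zinc ion through histidine residues in the active site. In the kidney they serve bicarbonate reclamation in the proximal tubule and acid secretion by intercalated cells of the collecting duct. CAR2, CAR3 and CAR13 are cytosolic, CAR5B is mitochondrial, and CAR4, CAR12, CAR14 and CAR15 face the outside of the cell on its membrane. CAR8 and CAR11 are carbonic anhydrase-related proteins that are known to lack the activity.

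The coding sequence around the zinc site shows this division, and is shown because it separates the catalytic members from the related proteins. Each line gives 27 coding bases, 5′ to 3′, from the GENCODE M21 (GRCm38) transcripts, and the capitals mark the codons aligned with the first and second zinc-binding histidine codons of *Car2*.
Car2: atccagtttCACtttCACtggggctca
Car3: cgccaattcCATcttCACtggggctcc
Car13: cggcagttcCATttgCACtgggggtca
Car5b: aagcagtttCATtttCATtggggagcc
Car4: gtacagttgCACctgCACtggtcaaat
Car12: gagcagctgCACttgCACtgggggaac
Car14: gcccagctcCACctgCACtggggtcag
Car15: ctgcagctgCACttcCACtggggcagc
Car8: tatgaagttAGAtttCACtggggaaga
Car11: agtgaactgCGCctgCTAtttggagct

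With the bases counted from the A of the start codon, the stretch of *Car2* and that of *Car3* both run from base 271 to base 297. Of the 10 members, 8 encode histidine at all 3 zinc-binding positions. *Car8* encodes arginine at the first, and *Car11* encodes arginine, leucine and glutamine at the 3 positions. *Car3* differed from the other members elsewhere in the site. The residue that passes protons out of the site in CAR2 is a histidine in 7 members, but a lysine in *Car3*, a tyrosine in *Car5b* and an arginine in *Car11*. A pocket position that is leucine in the other 9 members is phenylalanine in *Car3*. CAR3 is known as a slow carbonic anhydrase that is abundant in skeletal muscle, fat and liver.

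Over the aligned coding sequence, translated *Car3* shared 60.8% of its residues with *Car13* and 56.9% with *Car2*, and between 31.4% and 46.5% with the other 7 members. No stretch of 100 transcript bases was shared between *Car3* and any other gene, so its reads were separable from those of its relatives at that length. *Car15* was the exception in the family, with 64.2% of its 100-base stretches also present in the overlapping gene *Gm20518*, and its values are therefore uncertain.

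*Car3* lies at chr3:14863512-14872523 (GRCm38, plus strand, 7 exons in the transcript used). In Control it stood at 5.03, 7.57 and 4.07 FPKM, and in KSPAPN at 0.255, 1.13 and 1.04 FPKM. The groups did not overlap, and KSPAPN replicate 1 was the lowest library by a wide margin. The reads behind these levels numbered 267, 376 and 205 in Control and 17, 59 and 62 in KSPAPN.

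The *Car3* mean went from 5.56 ± 1.81 to 0.809 ± 0.481 FPKM (SD, n = 3). The edgeR estimate of the difference was -2.80 on the log2 scale (SE 0.42), or 6.96-fold lower in KSPAPN. Per total reads it was 6.78-fold lower, with a 95% exact interval from 5.66 to 8.18 that covers counting error only. Leaving out each library in turn gave log2 fold changes between -3.11 and -2.34. The smallest of these differences came without KSPAPN replicate 1.

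Ordered by log2 fold change, *Car3* was 10th from the lowest of the 16017 genes tested. Its log2 CPM spread more between the KSPAPN libraries (SD 1.11) than between the Control libraries (SD 0.45).

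**Figure D1:**
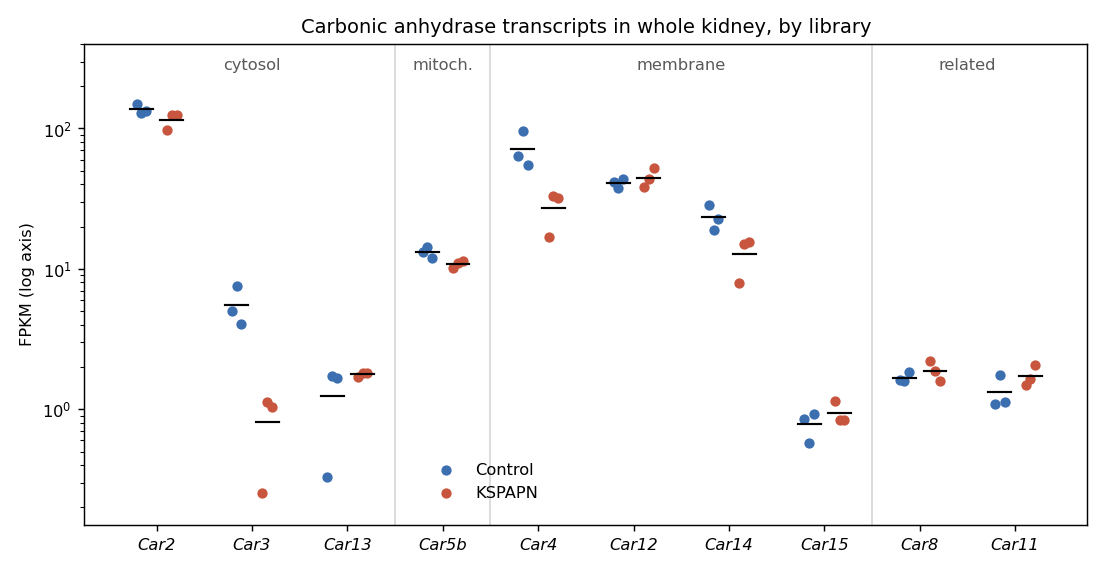
FPKM of each member on a log axis, with 1 point per library (Control blue, KSPAPN red, replicates 1 to 3 from left to right) and a bar at the mean of each group. The *Car3* points lie between 4.07 and 7.57 FPKM in Control and between 0.255 and 1.13 FPKM in KSPAPN, and *Car4*, *Car14*, *Car5b* and *Car2* also separate.

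*Car2*, the main cytosolic enzyme of the kidney and the one that supplies protons and bicarbonate in proximal tubule and intercalated cells, lies 13749 bases beyond *Car3* on the same strand (chr3:14886273-14900770). It stood at 149, 129.6 and 133 FPKM in Control and at 97.5, 124 and 124 FPKM in KSPAPN. The KSPAPN libraries were all lower than the Control libraries, but KSPAPN replicates 2 and 3 lay close to them. The log2 fold change was -0.25 (SE 0.11), with a 95% interval from -0.49 to 0.0012 and an adjusted p of 0.270 in edgeR's quasi-likelihood test. Without KSPAPN replicate 1 it was -0.13.

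*Car13* lies at the other end of the same cluster (chr3:14641727-14663002). It stood at 0.329, 1.73 and 1.66 FPKM in Control and at 1.70, 1.81 and 1.81 FPKM in KSPAPN. Apart from Control replicate 1, which had 14 reads, the 6 libraries were alike and the groups overlapped. The log2 fold change of 0.52 (SE 0.45, adjusted p = 0.582 in edgeR) went to 0.067 without Control replicate 1.

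The cluster on chromosome 3 spans 259 kb from *Car13* to *Car2*. *Car1*, the enzyme of red blood cells, lies between *Car13* and *Car3* and had no read in any of the 6 libraries, and the same held for the pseudogenes *Gm5843* and *Gm16399*. A count of 0 allows up to 3 reads in a library, or 0.144 to 0.175 CPM. *Car3*, 6.96-fold lower, thus lay between a gene without reads and *Car2*, which differed by 0.25 on the log2 scale. The ratio of *Car3* to *Car2* FPKM within a library, which does not depend on scaling, was 0.0337, 0.0584 and 0.0307 in Control and 0.00261, 0.00905 and 0.00843 in KSPAPN.

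*Car5b* encodes the mitochondrial enzyme that supplies bicarbonate to carboxylases such as pyruvate carboxylase, and lies at chrX:163976822-164027997. It stood at 13.2, 14.2 and 11.9 FPKM in Control and at 10.2, 11.0 and 11.3 FPKM in KSPAPN. The groups did not overlap, with a narrow gap between the lowest Control and the highest KSPAPN library. The log2 fold change was -0.27 (SE 0.095), with an unadjusted p of 0.0171 and an adjusted p of 0.163 in edgeR.

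*Car4*, at chr11:84957786-84966044, encodes the membrane-anchored enzyme of the proximal tubule and thick ascending limb, which acts on luminal and basolateral bicarbonate. It stood at 63.8, 96.7 and 54.7 FPKM in Control and at 16.9, 33.2 and 32.0 FPKM in KSPAPN. Control replicate 2 was the highest and KSPAPN replicate 1 the lowest library, in both cases as for *Car3*, and the groups did not overlap. *Car4* fell from 71.7 ± 22.1 to 27.4 ± 9.05 FPKM (SD, n = 3), a log2 fold change of -1.39 (SE 0.25, 95% interval -1.95 to -0.82), or 2.62-fold lower, with an adjusted p of 0.0242 in edgeR and 0.00709 in DESeq2.

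The call for *Car4* did not hold in every fit that left out 1 library, and such fits also changed the calls over all genes. Without Control replicate 1 the adjusted p in edgeR was 0.0830 (log2 fold change -1.47), without Control replicate 2 it was 0.0655 (-1.11) and without KSPAPN replicate 3 it was 0.0719 (-1.51). In these fits 34, 116 and 60 of all genes were called lower, against 361 with every library. The log2 fold change stayed between -1.55 and -1.11 in the 6 fits that each left out 1 library. limma on log2(FPKM + 1) gave -1.38 with an adjusted p of 0.0746.

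*Car14* encodes a membrane-spanning enzyme of the proximal tubule and thin descending limb and lies at chr3:95897768-95904691, far from the cluster. It stood at 28.5, 19.0 and 22.8 FPKM in Control and at 7.87, 14.9 and 15.6 FPKM in KSPAPN. KSPAPN replicate 1 was again the lowest library, and the groups did not overlap. The log2 fold change was -0.87 (SE 0.23, 95% interval -1.38 to -0.37), or 1.83-fold lower, with an unadjusted p of 0.00305 and an adjusted p of 0.0757 in edgeR.

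The difference in *Car14* therefore missed the threshold in edgeR, while DESeq2 gave an adjusted p of 0.00169. Without KSPAPN replicate 1 the log2 fold change was smaller, -0.60, and its adjusted p in edgeR was 0.0458. *Car14* overlaps *Aph1a* on the opposite strand, and without stated strandedness their reads cannot be told apart where they overlap. *Aph1a* had 1345 to 1698 reads in Control and 1329 to 1925 reads in KSPAPN.

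*Car12*, at chr9:66713686-66766845, encodes the membrane-spanning enzyme of the thick ascending limb and collecting duct. It stood at 41.4, 37.6 and 43.8 FPKM in Control and at 38.1, 43.5 and 52.7 FPKM in KSPAPN. The groups overlapped, and the log2 fold change was 0.13 (SE 0.12, 95% interval -0.14 to 0.41, adjusted p = 0.604 in edgeR). This interval does not reach the size of the difference in *Car4* or *Car14*.

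*Car15*, a membrane-anchored enzyme at chr16:17835276-17838364, was the least abundant member in Control. It stood at 0.849, 0.575 and 0.925 FPKM in Control and at 1.15, 0.832 and 0.835 FPKM in KSPAPN, from 19 to 51 reads per library. The groups overlapped (log2 fold change 0.27, SE 0.34, adjusted p = 0.718 in edgeR).

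The related proteins had low and similar levels in both groups. *Car8*, which is known for binding the inositol trisphosphate receptor in Purkinje cells, lies at chr4:8143362-8239041 and ranged from 1.59 to 1.85 FPKM in Control and from 1.59 to 2.20 FPKM in KSPAPN (log2 fold change 0.17, SE 0.19, adjusted p = 0.681 in edgeR). *Car11*, at chr7:45699843-45704682, ranged from 1.09 to 1.77 FPKM in Control and from 1.49 to 2.05 FPKM in KSPAPN (0.39, SE 0.28, adjusted p = 0.501 in edgeR). The 95% intervals were -0.25 to 0.60 for *Car8* and -0.24 to 1.02 for *Car11*, so that a difference in *Car11* of up to 1.02 on the log2 scale remained within the error.

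**Figure D2:**
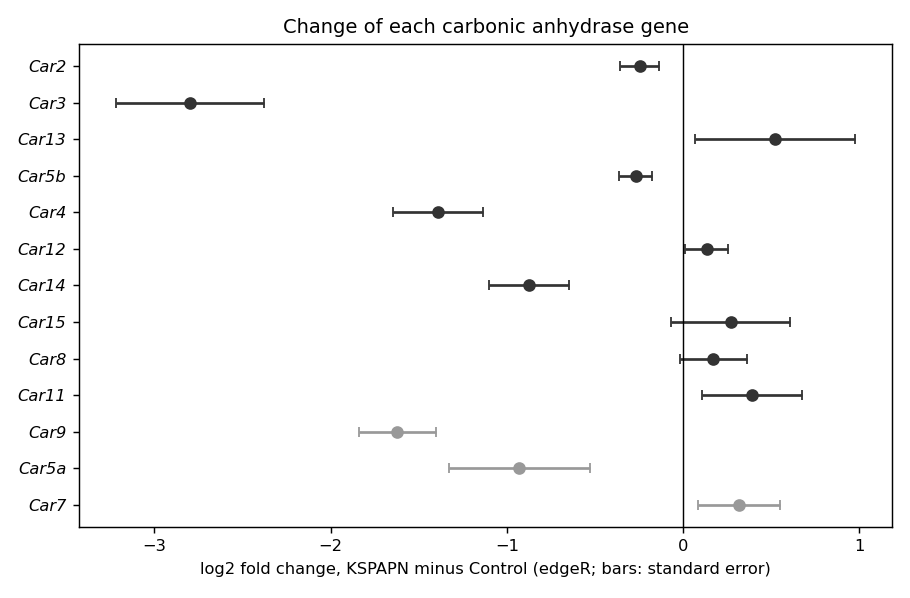
The edgeR log2 fold change (KSPAPN minus Control) of each member in black and of *Car9*, *Car5a* and *Car7* in gray, with bars of 1 standard error over 3 libraries per group. *Car3* (-2.80), *Car9* (-1.62), *Car4* (-1.39) and *Car14* (-0.87) lie to the left, and *Car12* (0.13) and *Car8* (0.17) lie near 0.

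Of the 9 members other than *Car3*, 1 was called lower at an adjusted p under 0.05 in edgeR, which was *Car4*, beside 2.25% of all genes tested. None (0 of 9) was called higher, beside 0.393% of all genes tested, and limma called none higher. At an unadjusted p under 0.05 in edgeR, 3 of the 9 were lower (*Car4*, *Car14* and *Car5b*) and 0 higher, beside 11.2% and 7.52% of all genes tested. DESeq2 called 2 of the 9 lower and 0 higher after adjustment, beside 5.11% and 1.22% of the genes to which it gave an adjusted p. Of all 10 members, 5 had every KSPAPN library below every Control library in FPKM (*Car2*, *Car3*, *Car4*, *Car5b* and *Car14*), beside 13.5% of all genes tested. None had every KSPAPN library above, beside 10.8%. The family was selected on this contrast, so nothing is read from these shares.

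The members did not share a direction. The log2 fold change was negative in 5 and positive in 5, with a median of -0.056 over the 10 members and 0.13 without *Car3*, beside 0.012 over all genes tested. No member changed sign under any of the 15 other settings tried.

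The order of the levels changed with the genotype. In Control the FPKM descended from *Car2* (137) over *Car4* (71.7), *Car12* (40.9), *Car14* (23.4) and *Car5b* (13.1) to *Car3* (5.56), and none of these neighbors overlapped in their library ranges. *Car8*, *Car11*, *Car13* and *Car15* followed with overlapping ranges. In KSPAPN *Car12* (44.7) stood above *Car4* (27.4), *Car14* (12.8) and *Car5b* (10.8) overlapped, and *Car3* (0.809) was last, overlapping *Car15* (0.939).

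The exchange of *Car4* and *Car12* was present in every library. The ratio of *Car4* to *Car12* FPKM was 1.54, 2.57 and 1.25 in the Control libraries and 0.444, 0.763 and 0.606 in the KSPAPN libraries. All the Control ratios were above 1 and all the KSPAPN ratios below it. The ratio of *Car14* to *Car12* was also lower, with 0.572 ± 0.101 in Control and 0.282 ± 0.0695 in KSPAPN (SD, n = 3), and again without overlap.

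Summed over the 10 members, carbonic anhydrase transcripts stood at 305, 310.4 and 275 FPKM in Control and at 177, 234 and 243 FPKM in KSPAPN. All 3 KSPAPN sums were lower, and most of the difference lay in *Car4* and *Car2*, the 2 most abundant members in Control. The share of *Car2* in the sum was 46.3% ± 3.95 in Control and 53.1% ± 1.98 in KSPAPN, that of *Car4* 24.0% ± 6.25 and 12.3% ± 2.43, and that of *Car12* 13.9% ± 1.91 and 20.6% ± 1.76 (SD, n = 3). *Car3* made up 1.86% ± 0.512 of the sum in Control and 0.352% ± 0.182 in KSPAPN. The gene with the largest fold difference was thus a minor part of carbonic anhydrase mRNA in both genotypes.

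**Figure D3:**
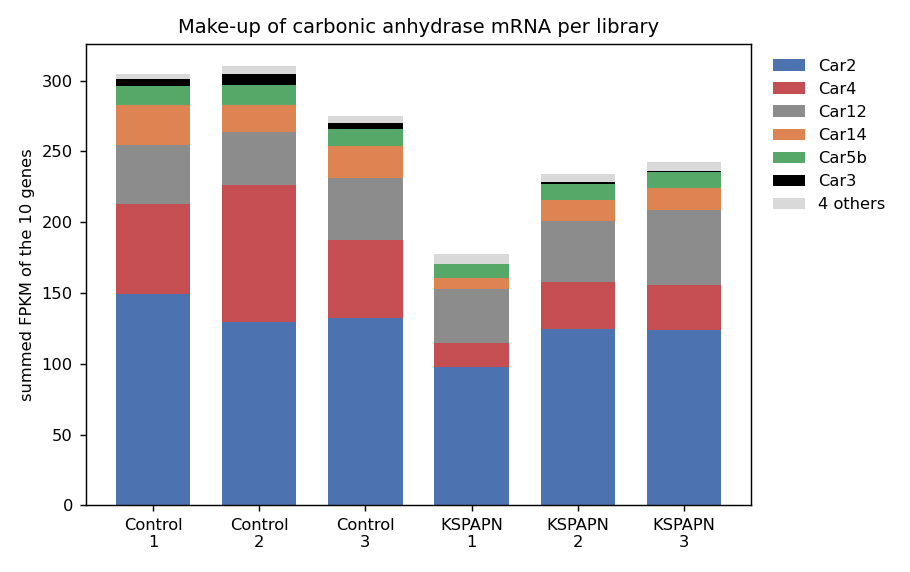
Summed FPKM of the 10 members in each library, stacked by gene, with *Car8*, *Car11*, *Car13* and *Car15* joined as 4 others. The bars reach 275 to 310.4 in Control and 177 to 243 in KSPAPN, the red *Car4* part is smaller in every KSPAPN library, and the black *Car3* part is thin throughout.

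The mouse genome holds 6 further carbonic anhydrase genes that the choice did not list. *Car9*, a membrane enzyme known as a target of hypoxia signaling, stood at 5.50, 4.48 and 3.61 FPKM in Control and at 1.42, 1.73 and 1.26 FPKM in KSPAPN, without overlap. It fell by 1.62 on the log2 scale (SE 0.22, adjusted p = 0.00741 in edgeR). Without Control replicate 1 the adjusted p was 0.0505.

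*Car5a*, the other mitochondrial enzyme, had a log2 fold change of -0.93 (SE 0.40, adjusted p = 0.247 in edgeR), with Control replicate 1 high at 2.98 FPKM against 1.03 and 1.66 FPKM in the other Control libraries. *Car7*, a cytosolic enzyme best known from neurons, ranged from 0.704 to 0.875 FPKM in Control and from 0.942 to 0.993 FPKM in KSPAPN, without overlap (0.32, SE 0.23, adjusted p = 0.502 in edgeR). *Car1*, *Car6* and *Car10* had no read in any library.

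The libraries in which *Car3* was high and low were compared with those of all 12247 other genes tested with a mean of at least 1 FPKM. Likeness was measured as the root mean square difference of log2 CPM over the 6 libraries, each gene centered on its own mean. The most similar gene was *Slc10a2*, the sodium-dependent bile acid transporter, with a difference of 0.36, followed by *Slc22a26* (0.42), *Gm8947* (0.42), *Cyp4a12b* (0.44), a fatty acid hydroxylase, and *Inmt* (0.45), an indole methyltransferase. All 5 were lower in each KSPAPN library than in every Control library, and 4 of them had their highest level in Control replicate 2, as *Car3* did. These shared features follow from choosing the 5 by likeness to *Car3*, so nothing is read from them. *Slc10a2* stood at 15.3, 20.4 and 12.2 FPKM in Control and at 1.62, 4.66 and 4.03 FPKM in KSPAPN.

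Among the members, *Car4* was at place 44 in likeness to *Car3* (0.83) and *Car14* at place 157 (1.13), while *Car2*, its neighbor on the chromosome, was at place 1426 (1.46) and *Car13* at place 12193 (2.09). Such a ranking over 6 libraries reflects the size of the difference between genotypes as well as the variation within them. KSPAPN replicate 1 was the lowest library for *Car3*, *Car4* and *Car14*, whereas *Car9* was lowest in KSPAPN replicate 3.

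**Figure D4:**
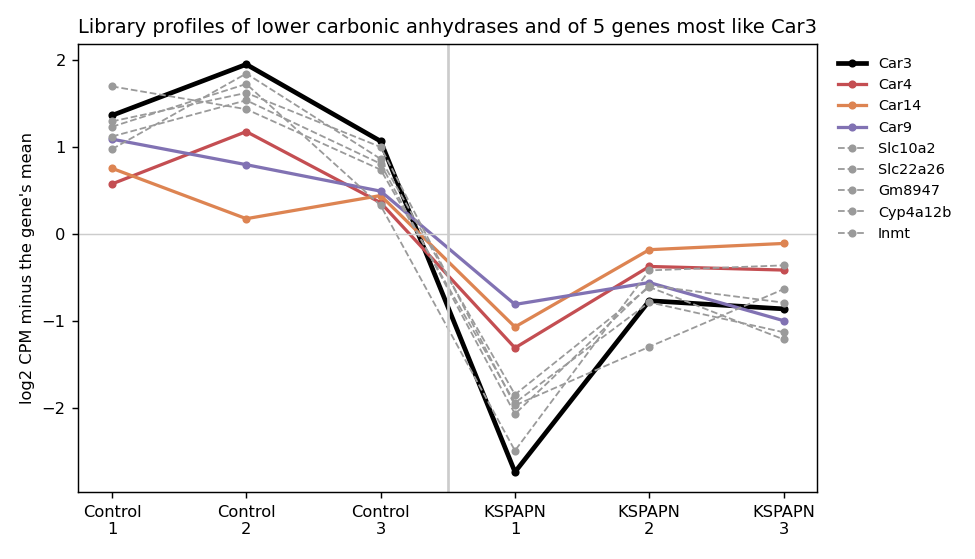
Log2 CPM of *Car3* (black), *Car4*, *Car14*, *Car9* and the 5 genes most like *Car3* (gray, dashed) in each library, minus each gene's own mean over the 6 libraries. *Car3* runs from 1.95 in Control replicate 2 to -2.74 in KSPAPN replicate 1, and *Car4* and *Car14* have their lowest point in the same KSPAPN library.

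Among the partners of carbonic anhydrases in bicarbonate and proton transport, 29 of 32 genes were tested, and 2 were called lower and 0 higher in edgeR, beside 2.25% and 0.393% of all genes tested. At an unadjusted p under 0.05 in edgeR, 7 were lower and 0 higher, beside 11.2% and 7.52% of all genes tested. DESeq2 called 6 lower and 0 higher, beside 5.11% and 1.22% of the genes to which it gave an adjusted p. The median log2 fold change of the list was -0.086. *Slc26a1*, a sulfate and oxalate exchanger of the proximal tubule that also carries bicarbonate, fell from 35.5 ± 3.06 to 20.1 ± 3.72 FPKM (log2 fold change -0.82, SE 0.13, adjusted p = 0.0136 in edgeR). *Rhbg*, a basolateral ammonia channel of the distal nephron, fell from 4.52 ± 0.0984 to 2.20 ± 0.448 FPKM (-1.04, SE 0.20, adjusted p = 0.0264 in edgeR). With 1 library left out, the adjusted p in edgeR reached 0.0793 for *Slc26a1* and 0.123 for *Rhbg*. The list had 0 calls without Control replicate 1, and 1 without Control replicate 2, Control replicate 3 or KSPAPN replicate 3. limma called 2 lower.

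The transporters that work most directly with CAR2 and CAR4 in the proximal tubule did not pass the test. *Slc4a4*, the basolateral sodium bicarbonate cotransporter, had a log2 fold change of -0.27 (adjusted p = 0.328 in edgeR), *Slc9a3*, the luminal sodium proton exchanger, of -0.19 (0.342) and *Aqp1*, the water channel, of -0.24 (0.296). In intercalated cells, the chloride bicarbonate exchangers *Slc4a1* and *Slc26a4* had log2 fold changes of -0.71 (adjusted p = 0.0893 in edgeR) and 0.20 (0.313), and the proton pump subunit *Atp6v1b1* of -0.16 (0.402). The pump subunits of the list differed. *Atp6v0a4* stood at -0.41 without overlap (adjusted p = 0.0706 in edgeR and 0.0117 in DESeq2). *Atp6v1c2* stood at -0.086, *Atp6v0d2* at 0.16 and *Atp6v1g3* at 0.14, each with overlap. The *Slc4a1* libraries did not overlap, with 9.22 ± 0.769 FPKM in Control and 5.66 ± 1.94 FPKM in KSPAPN.

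Enzymes that use bicarbonate as a substrate had 0 calls among 8 tested in either direction in edgeR, DESeq2 and limma. At an unadjusted p under 0.05 in edgeR 1 of the 8 tested was lower and 1 higher, beside 11.2% and 7.52% of all genes tested. The one higher was *Pcx*, pyruvate carboxylase, at 218 ± 9.37 FPKM in Control and 266 ± 21.4 FPKM in KSPAPN, without overlap (log2 fold change 0.30, SE 0.10, adjusted p = 0.162 in edgeR). *Car5b* and *Pcx* thus had estimates of opposite sign, neither past the threshold.

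Markers of cell types and of sex were set beside these differences, and their part in the *Car3*, *Car4* and *Car14* results was not tested. Of 15 proximal tubule markers, the cells where *Car4* and *Car14* are known to be made, 4 were called lower (*Slc22a6* -0.46, *Slc22a7* -1.68, *Slc7a13* -1.46 and *Miox* -0.60 on the log2 scale) and 0 higher in edgeR. Of all genes tested, 2.25% were called lower. Without adjustment, 5 of the 15 were lower at p under 0.05 in edgeR (11.2% of all genes) and 0 higher. DESeq2 called 5 lower and 0 higher, beside 5.11% lower of the genes to which it gave an adjusted p. No marker of this list was called by limma on log2(FPKM + 1) or log2(FPKM + 0.1), or by the unmoderated test on FPKM. In edgeR, leaving out Control replicate 1 gave 0 calls, and leaving out each other library gave 1 to 4. The summed level of the list was 4477 to 5177 FPKM in Control and 3748 to 4099 FPKM in KSPAPN, with a median log2 fold change of -0.24. *Car4* (-1.39) lay near *Slc7a13*, and *Slc34a1* stood at -0.15.

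In the thick ascending limb and distal tubule list, 1 of 8 markers, *Slc12a1*, was called higher (0.52, adjusted p = 0.0437 in edgeR), beside 0.393% of all genes tested. Its adjusted p in edgeR ran from 0.0361 to 0.193 in the fits that left out 1 library. Of these fits, only the one without KSPAPN replicate 1 kept a call in this list. limma and the two-sample test on FPKM gave 0 calls. Without adjustment, 11.2% of all genes tested were lower and 7.52% higher in edgeR. At an unadjusted p under 0.05, 1 was lower and 1 higher, and the lower one was *Slc12a3*, the sodium chloride cotransporter of the distal convoluted tubule (-0.36, adjusted p = 0.207 in edgeR, without overlap). *Umod*, the most abundant, had a value near 0 whose sign depended on the scaling. Intercalated cell markers had no call among 10 in edgeR (2 lower at an unadjusted p under 0.05, 2 lower in DESeq2), with a median log2 fold change of -0.012 and summed levels of 169 to 173 FPKM in Control and 149 to 174 FPKM in KSPAPN. Principal cell markers had 0 calls among 5 tested (2 lower at an unadjusted p under 0.05, 0 in DESeq2).

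CAR3 is abundant in fat, muscle and liver, so markers of those tissues were examined. Of 13 adipocyte markers, 9 had a mean under 1 FPKM, including *Plin1* and *Retn*, and *Lep* was at or near 0. Their summed level was 22.3 to 27.1 FPKM in Control and 24.0 to 29.2 FPKM in KSPAPN, with *Fabp4* and *Slc2a4* making up most of it. No adipocyte marker was called in edgeR, DESeq2 or limma (0 of 8 tested). At an unadjusted p under 0.05 in edgeR 2 were higher, beside 7.52% of all genes tested. The most abundant, *Fabp4*, stood at 8.02 ± 0.385 and 10.1 ± 1.93 FPKM.

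Of 12 skeletal muscle markers, 11 had a mean under 1 FPKM, and *Acta1*, *Ckm*, *Myh1*, *Myh2* and *Myh4* had no read in Control. Their sum, 16.3 to 27.1 FPKM in Control and 3.45 to 19.0 FPKM in KSPAPN, was mostly *Pvalb*, which is also a gene of the distal convoluted tubule, and 0 of 3 tested were called in edgeR, in DESeq2 or at an unadjusted p under 0.05. Hepatocyte markers summed to 87.0 to 173 FPKM in Control and 57.3 to 92.3 FPKM in KSPAPN, mostly *Ttr*, which was the 1 of 8 tested that was called (lower, log2 fold change -1.17, adjusted p = 0.0388 in edgeR). At an unadjusted p under 0.05 and in DESeq2, 2 hepatocyte markers were lower, *Ttr* and the fibrinogen gene *Fgg* (-1.04, adjusted p = 0.109 in edgeR and 0.0440 in DESeq2). Of all genes tested, 2.25% were called lower in edgeR and 11.2% were lower without adjustment. DESeq2 called 5.11% lower of the genes to which it gave an adjusted p. Of the 8 tested, 6 had a negative and 2 a positive log2 fold change, *Alb* among the latter (0.55, SE 0.68). Among markers too low to test, *Ahsg* had 1, 0 and 1 reads in Control and 2, 14 and 15 in KSPAPN. *Mup3* had 1, 3 and 2 against 0, 18 and 10, *Cyp3a11* 0, 0 and 0 against 0, 4 and 10, and *Serpina1c* 12, 7 and 5 against 3, 12 and 4. Erythroid markers had 0 calls among 6 tested in edgeR (1 lower at an unadjusted p under 0.05, 1 in DESeq2). By both rules this was *Slc4a1*, which is also in the intercalated cell list. Of the 6, 2 had a negative and 4 a positive log2 fold change.

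Genes known to differ between male and female mouse kidney were also set beside *Car3*. All 9 male-biased genes had a negative log2 fold change, with a median of -0.39, and 1, *Cyp2e1*, was called lower in edgeR (-0.82, adjusted p = 0.0399), with 4 lower at an unadjusted p under 0.05 and 1 in DESeq2. No male-biased gene was called by limma at either pseudocount. Of 5 female-biased genes, 4 were negative, with a median of -1.19, and 1, *Cyp4a14*, was called lower (-2.56, adjusted p = 0.00613 in edgeR), with 3 lower at an unadjusted p under 0.05 and 1 in DESeq2. In this list limma called 1 lower at each pseudocount. Of all genes tested, 2.25% were called lower in edgeR and 11.2% were lower without adjustment. DESeq2 called 5.11% lower of the genes to which it gave an adjusted p. Control replicate 1 stood apart for *Slc7a12*, at 12.6 FPKM against 0.729 and 2.71 FPKM in the other Control libraries. It also did for *Prlr*, at 3.56 FPKM against 0.387 and 1.29 FPKM. Of the Control libraries it was highest for *Gm4450* (32.6 FPKM) too. Control replicate 2 was highest for *Cyp4a14* (25.1 FPKM), and Control replicate 3 for *Slc22a29* (1.83 FPKM). Without Control replicate 1 the log2 fold change of *Slc7a12* went from -2.19 to -0.55 and that of *Prlr* from -0.79 to 0.27. *Car3* stood at -2.87 without it.

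**Figure D5:**
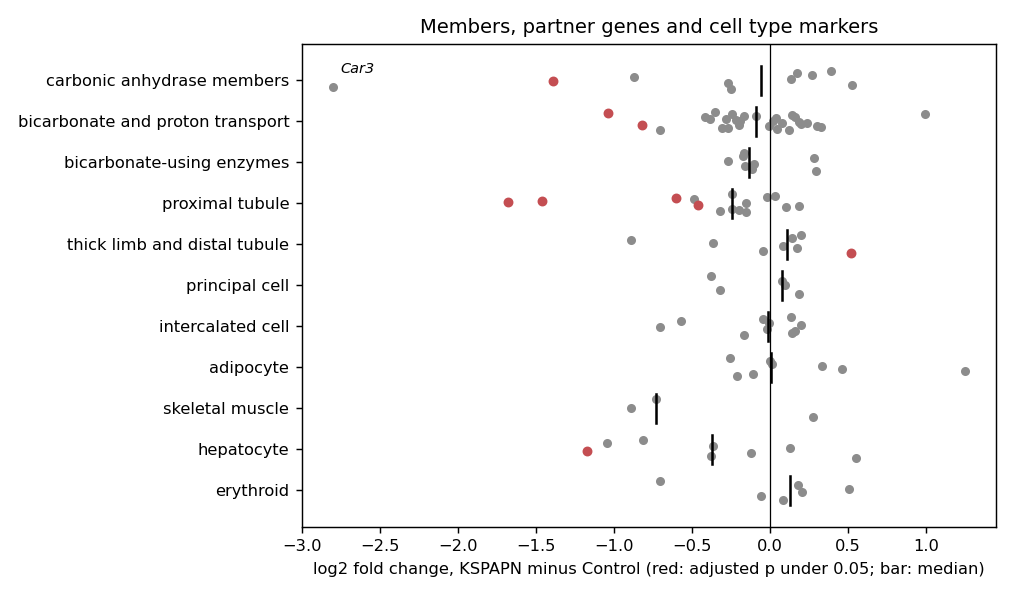
Log2 fold change (KSPAPN minus Control, edgeR) of each tested gene, by list, with 1 point per gene, a bar at the median and red points at an adjusted p under 0.05 (*Car3*, drawn gray, is shown without a test). *Car3* lies at -2.80, to the left of every gene of the partner and marker lists plotted, and the medians of the lists plotted, which leave out the sex-biased genes and the other carbonic anhydrases, run from -0.73 in the skeletal muscle list, with 3 genes, to 0.13 in the erythroid list.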

How the data were processed

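Whole kidney poly(A) RNA of 3 Control and 3 KSPAPN libraries, each a pool of 3 mice, had been sequenced on a NovaSeq instrument. The authors deposited raw read counts per Ensembl gene, without normalization, and FPKM scaled by gene length and library size, with the total used not stated. The submitters' processing notes name STAR 2.5, TopHat, HTSeq 0.6.1, DESeq2 and edgeR, without a role or order. The genome build, and whether reads were counted by strand, is not given in the sources used here. Count and FPKM columns were matched to samples by group abbreviation and replicate number.

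Of 54532 identifiers, 54495 were matched to GENCODE M21 (GRCm38), and 37 were not. Counts were fitted with edgeR 4.0.16 in R 4.3.3, using TMM factors, filterByExpr at its defaults (min.count 10, min.total.count 15), the two-sided quasi-likelihood test and Benjamini-Hochberg adjustment over 16017 genes. Standard errors are the estimate divided by the square root of its F statistic. Total counts ran from 17183358 to 20871173 per library. Intervals from counts cover counting error only, since reads carry no molecular identifiers. The methods were tested on simulated data. Transcripts were translated and aligned in Python 3.11.15, and plots drawn with matplotlib 3.10.9.

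Alternatives were DESeq2 1.42.0, other scalings, no filter, limma 3.58.1 on log2(FPKM + 1) and log2(FPKM + 0.1), the unmoderated two-sample test on FPKM that the study names, the replicate number as a block and each library left out. The members and gene lists were chosen with earlier results of these data known. Named genes are all carbonic anhydrases, genes of the chromosome 3 cluster, *Adipoq*, partner and marker genes past an adjusted p of 0.05, fixed partners, the most abundant marker of each list and the 5 genes most like *Car3*. *Alb*, *Plin1*, *Retn*, *Lep*, *Acta1*, *Ckm*, *Myh1*, *Myh2*, *Myh4*, *Slc2a4*, *Slc12a3*, *Fgg*, *Ahsg*, *Mup3*, *Cyp3a11*, *Serpina1c*, *Slc7a12*, *Prlr*, *Slc22a29*, *Gm4450*, *Atp6v0a4*, *Atp6v0d2*, *Atp6v1g3*, *Atp6v1c2*, *Cps1*, *Aph1a* and *Gm20518* were named after their values were seen.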

Additional observations from a re-analysis of the deposited data

How the results depend on the processing

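None of the 10 members changed sign in the 15 alternatives. *Car3* stood between -3.11 and -2.34 without single libraries and at -1.86 on log2(FPKM + 1), where the pseudocount shrinks low genes. *Car4* kept its size but lost its call with limma at pseudocounts of 1 (-1.38) and 0.1 (-1.41), with the two-sample test on FPKM (-1.39, adjusted p = 0.282, the highest of its alternatives) and in 3 of the 6 fits without single libraries (-1.55 to -1.11 over all 6). *Car14* passed the threshold in DESeq2 (-0.87), without the filter (-0.88) and in 1 of the fits without single libraries (-1.04 to -0.60). Members called other than *Car3* numbered 1, 2 in DESeq2, 2 without the filter, 0 with limma at both pseudocounts, 0 with the two-sample test and 0 to 2 without single libraries. The causes were not tested.

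Over all genes, 361 were lower and 63 higher. These counts were 746 and 178 in DESeq2, 1038 and 301 without the filter, 118 and 10 with limma at a pseudocount of 1, 109 and 10 at 0.1, 0 and 1 with the two-sample test, and 34 to 571 and 5 to 162 without single libraries; with total counts only, 195 were lower. Genes called in the lists went from 11 to 18 in DESeq2, 32 without the filter, 4 and 4 with limma, 0 with the two-sample test and 1 to 14 without single libraries. Among the fits without single libraries, the fewest lower genes came without Control replicate 1 (34, with 5 higher) and the most without KSPAPN replicate 1 (571, with 162 higher), and 5 were also higher without KSPAPN replicate 3.

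The replicate number as a block gave 705 lower, 224 higher and 17 list genes, and it changed no call among the members. Same-numbered libraries correlated weakly (r = 0.054, 0.154 and 0.173 between deviations from the group means). Each library nevertheless correlated best with its own number, a hint from the data only, and whether the libraries were paired stayed undecided.

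Of the 45 genes followed through all settings, signs changed in 4 markers with values near 0 or wide errors. Among genes named later and not followed in this way, *Prlr* (-0.79) ranged from -1.26 to 0.27 without single libraries. *Slc22a29* (0.076) ranged from -0.29 to 0.39. The 4 markers were the following. *Hbb-bs* (0.20) ranged from -0.18 to 0.39 without single libraries (-0.00052 without Control replicate 3), *Aqp2* (0.19) from -0.33 to 0.40, *Umod* (-0.045) from -0.20 to 0.078 and *Slc4a9* (-0.0065) from -0.077 to 0.068. With total counts only, *Umod* was at 0.030 and *Slc4a9* at 0.059. *Car3* in KSPAPN replicate 1 rested on 17 reads and *Car13* in Control replicate 1 on 14, which limits their precision.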
